A study of Mus musculus with 29 samples.

Results

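The niche adhesion and homing receptor genes Cxcr4, Itga4, Itga5, Itga6, Itgb1, Selplg, Cd44, Esam, Pecam1 and Cdh5 were followed by RNA-seq in mouse hematopoietic stem cells (HSCs). They were chosen by name, as 10 of the 55376 gene symbols in the count files, and all 10 passed the filter on low counts, which left 33690 genes to test. HSCs were sorted as lineage-negative, cKit+ Sca1+ CD34- Flk2- CD150+ cells from young and old wild-type mice (YWT, 4 libraries, and OWT, 4 libraries) and from young and old Gadd45b knockout mice (YKO, 4 libraries, and OKO, 7 libraries). The knockout is a germline allele, so every cell of the animal carries it, and Gadd45b encodes a stress-induced protein linked to DNA demethylation. The labels give age only as young or old, and they do not say whether a library came from 1 mouse or from a pool, so p-values measure the spread between these libraries.

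HSCs live in bone marrow niches and are held there, or brought back after transplantation, by a chain of contacts. CXCR4 is the receptor for the chemokine CXCL12, which niche cells secrete, and its signal both retains HSCs and switches integrins into their binding state. The integrin alpha chains 4, 5 and 6 each pair with the beta 1 chain to bind VCAM1 and fibronectin, fibronectin, and laminin. PSGL-1, encoded by Selplg, is the ligand that lets cells roll on P-selectin, and CD44 binds hyaluronan. ESAM, PECAM-1 and VE-cadherin, the product of Cdh5, are junction molecules of endothelial cells, and ESAM and PECAM-1 are also carried by HSCs.

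The promoters of 4 members are shown, those of Cxcr4 and Itga4 because these genes had the lowest p-values among the members, and those of Itgb1 and Cd44 because these genes, with Selplg and Pecam1, were low together in part of the OKO libraries. Each is the 250 bases before the annotated start, written 5′ to 3′ on the strand of the gene, from RefSeq on GRCm38.p6, which listed 5 of the 10 members (Itga5 besides these). Capitals mark the letters GGGCGG, known as a GC box, on either strand. They also mark the letters TATAAA, the core of a TATA box, on either strand. They lie at chr1:128592300-128592549 (minus strand), chr2:79255176-79255425 (plus), chr8:128685404-128685653 (plus) and chr2:102901666-102901915 (minus).
Cxcr4: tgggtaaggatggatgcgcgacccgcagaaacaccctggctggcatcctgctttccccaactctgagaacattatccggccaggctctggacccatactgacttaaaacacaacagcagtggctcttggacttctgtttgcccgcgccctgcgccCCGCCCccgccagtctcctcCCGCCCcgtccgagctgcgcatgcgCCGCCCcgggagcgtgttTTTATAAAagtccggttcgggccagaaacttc
Itga4: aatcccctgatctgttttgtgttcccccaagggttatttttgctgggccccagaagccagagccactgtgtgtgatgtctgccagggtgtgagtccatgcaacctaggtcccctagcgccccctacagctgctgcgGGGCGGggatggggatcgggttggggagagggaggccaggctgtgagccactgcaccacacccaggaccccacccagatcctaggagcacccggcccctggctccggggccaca
Itgb1: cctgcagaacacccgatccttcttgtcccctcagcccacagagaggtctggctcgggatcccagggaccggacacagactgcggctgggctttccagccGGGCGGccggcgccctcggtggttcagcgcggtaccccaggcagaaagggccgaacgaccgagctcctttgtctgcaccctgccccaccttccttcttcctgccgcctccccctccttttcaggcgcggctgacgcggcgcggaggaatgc
Cd44: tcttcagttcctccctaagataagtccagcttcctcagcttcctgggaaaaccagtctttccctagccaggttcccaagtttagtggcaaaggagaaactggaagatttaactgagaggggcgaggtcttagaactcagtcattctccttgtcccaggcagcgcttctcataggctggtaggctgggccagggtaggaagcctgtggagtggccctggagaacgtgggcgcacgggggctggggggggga

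The Cxcr4 window held 3 GC boxes, those of Itga4 and Itgb1 held 1 each, and that of Cd44 held 0. Of all 32851 windows of this length, 32.7% held at least 1. Only the Cxcr4 window among the 4 held the TATA letters, in 2 overlapping matches on opposite strands that began 30 and 32 bases before the start, and 12.4% of all windows held them. CG dinucleotides numbered 19 in the Cxcr4 window and 21 in that of Itgb1, against 6 in Itga4, 5 in Cd44 and a median of 6 over all windows. These are matches of letters and no measure of binding.

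Libraries held 22197555 to 77970627 counts. HSC markers were present throughout, with Kit at 752 to 1593, Ly6a at 93.3 to 616 and Slamf1 at 42.4 to 127 CPM (counts scaled to library size with TMM factors, the scale of all levels unless another is named), while Flt3, which the sort depletes, stayed at 6.92 to 30.5. RNA of Cd34, also negative in the sort, was not low. It had 1335 to 19055 raw counts a library, against 130 to 2002 for Flt3 and 861 to 9008 for Slamf1. Gadd45b stood at 7.34 to 17.5 in YWT, 10.1 to 15.5 in OWT, 5.14 to 14.3 in the libraries labelled YKO and 2.84 to 6.94 in those labelled OKO. It was lower in all 7 OKO libraries than in each OWT library but did not separate YKO from YWT. Counts per gene do not show which exons carried the reads, so YKO and OKO stand for the labels throughout. Sample titles mark 2 batches. YWT, YKO and OKO1 to OKO3 formed batch 1, and OWT and OKO4 to OKO7 formed batch 2, so age in wild-type HSCs and batch cannot be told apart. OKO1 stood apart, with 27319850 counts spread over 47901 genes and the largest TMM factor, 1.83. YKO1 and YKO2 held the most RNA of T cell genes (summed CPM of 9 genes 161 and 106, against 13.8 to 57.4 elsewhere) and of B cell genes (10 genes, 872 and 1581, against 31.1 to 730). Labels list every mouse as female, yet the Y-linked gene Ddx3y reached 1 CPM in 7 of the 19 libraries, and the study's methods state that both sexes were used.

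All 10 genes were read in every library, and they spanned a wide range. Raw counts ran from 7802 to 28775 for Itgb1 and from 6 to 98 for Cdh5. Per kilobase of the longest annotated transcript, and averaged over the 19 libraries, CPM was 104 ± 47.7 (SD) for Esam, 90.6 ± 20.3 for Itgb1, 81.6 ± 25.1 for Selplg and 50.4 ± 17.3 for Itga6. Below them came Itga5 at 26.8 ± 8.26, Cd44 at 19.4 ± 4.61, Pecam1 at 18.3 ± 6.12, Cxcr4 at 10.6 ± 4.46, Itga4 at 9.85 ± 3.09 and Cdh5 at 0.223 ± 0.138. Itga6 exceeded Itga5 in 19 of 19 libraries and Itga4 exceeded Cdh5 in 19 of 19. Other neighbours crossed, with Esam above Itgb1 in 11 libraries, Cd44 above Pecam1 in 10 and Cxcr4 above Itga4 in 10. The top of the order depends on the length used. With the union of all exons Itgb1 led at 84.7, Esam followed at 67.5, and Selplg, whose longest annotated transcript is a single exon of 2314 bases against a union of 4272, dropped to 44.2. On that length Itga6 and Itga5 were alike, at 24.1 and 24.01.

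**Figure D1:**
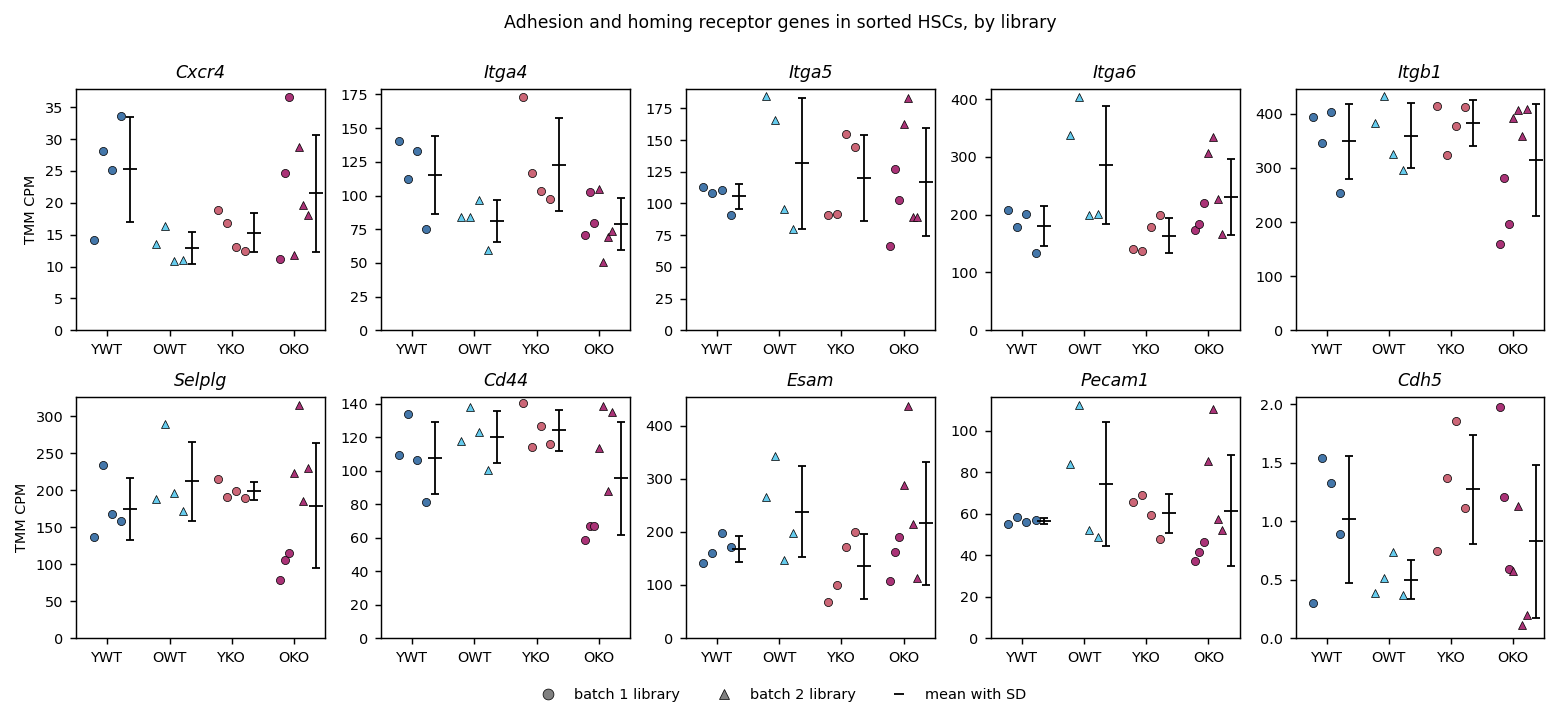
Level of each of the 10 genes (y axis, TMM CPM) in each library of YWT, OWT, YKO and OKO, with circles for batch 1, triangles for batch 2, and a bar for the mean with its SD. No gene separates the groups of any comparison, Cxcr4 has its highest mean in YWT and is spread from 11.1 to 36.6 in OKO, and the 3 OKO circles lie low for Itgb1, Selplg, Cd44 and Pecam1.

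The groups were compared 4 ways, each with 1 model (edgeR's quasi-likelihood test) over all 19 libraries, and a gene was called when its Benjamini-Hochberg adjusted p was under 0.05 and its fold change over 1.5. No member was called in OWT vs. YWT, where 0.00297% of all genes tested were, in YKO vs. YWT (0.0267%), in OKO vs. YKO (1.29%) or in OKO vs. OWT (0.0327%). The test of whether the age difference differed between genotypes called 0 members and 0% of all genes. At an unadjusted p under 0.05 the members numbered 2, 1, 1 and 1 in these comparisons and 1 in the test of the age difference. Of all 33690 genes, 1476, 1548, 5330, 2741 and 1556 had such a p. DESeq2 also called 0 members in each, with 3, 1, 3, 1 and 1 at an unadjusted p under 0.05. Of all genes it called 135, 136, 2122, 73 and 7, and 1916, 2133, 6968, 4640 and 2535 had such a p. For no member did the libraries of the groups compared separate fully, as they did for 4.13% of all genes in OWT vs. YWT, 5.12% in YKO vs. YWT, 2.60% in OKO vs. YKO and 0.819% in OKO vs. OWT. In bulk RNA from sorted cells, fewer cells of a type and less RNA per cell cannot be told apart.

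**Figure D2:**
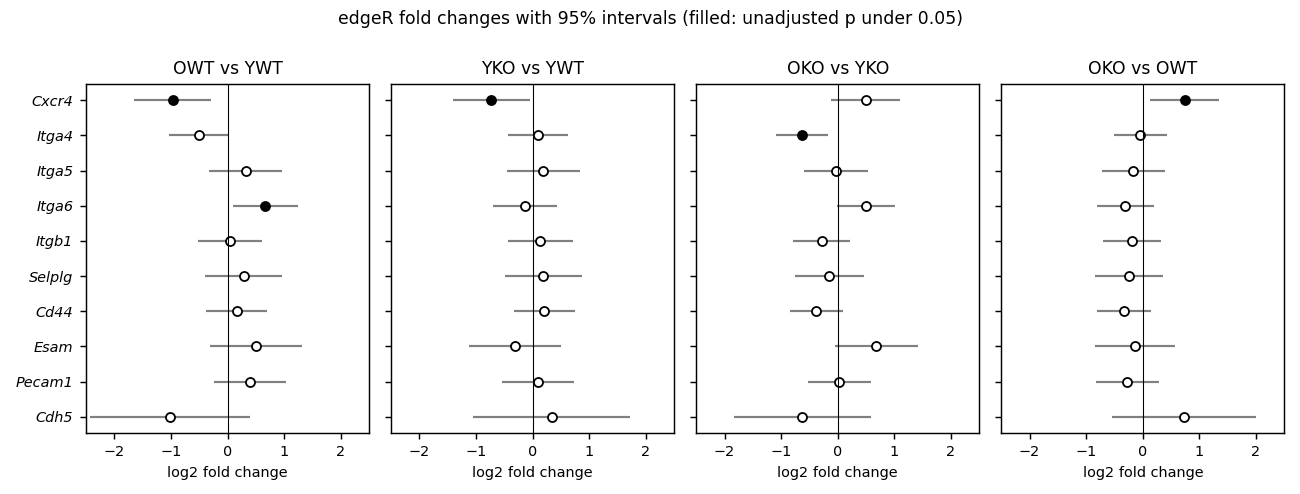
Log2 fold change (x axis) of each member in the 4 comparisons, with 95% intervals from edgeR; filled points have an unadjusted p under 0.05 and none has an adjusted p under 0.05. Cxcr4 lies below 0 in OWT vs. YWT and YKO vs. YWT and above 0 in OKO vs. OWT, and most other intervals cross 0.

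Cxcr4 (ENSMUSG00000045382.6, chr1:128588199-128592293, minus strand, 2 exons in its longest transcript) had the lowest p-value of the members between the wild-type ages. Its CPM was 14.1, 28.1, 25.2 and 33.7 in YWT and 13.5, 16.3, 10.8 and 11.04 in OWT. In YWT 3 of 4 libraries lay above every OWT library and YWT1 lay within their range. The log2 difference was -0.97 (SE 0.33, 95% interval -1.65 to -0.29, edgeR adjusted p = 0.744). The 4 YKO libraries, at 18.8, 16.8, 13.0 and 12.4, also had a lower mean than YWT, with a log2 difference of -0.73 (SE 0.33, edgeR adjusted p = 1.00). OKO was the most spread group, from 11.1 through a median of 19.6 to 36.6, and overlapped all the others. Against OWT its log2 difference was 0.74 (SE 0.30, edgeR adjusted p = 0.592), and against YKO it was 0.50 (SE 0.29, edgeR adjusted p = 0.421).

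The age difference of Cxcr4 thus had opposite signs in the 2 genotypes, and this contrast of differences was 1.46 on the log2 scale (SE 0.44, edgeR unadjusted p = 0.00316, adjusted p = 0.811). It did not pass the correction over 33690 genes, of which 1556 had an unadjusted p under 0.05. It stayed positive without each library in turn, between 1.29 and 1.73. Neither batch holds all 4 groups, so this contrast cannot be had within a batch, and batch and the wild-type age difference in it cannot be told apart. Within batch 2, OKO4 to OKO7 vs. OWT gave 0.63 (edgeR adjusted p = 1.00). Within batch 1, OKO1 to OKO3 vs. YKO gave 0.73 (adjusted p = 0.126), and YKO vs. YWT is the difference of -0.73 given above. Scaled by library totals alone, OKO1 to OKO3 vs. YKO gave 1.29 (adjusted p = 0.0149), but the median of all genes was then 1.18.

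The integrin chains were led by Itgb1 (ENSMUSG00000025809.15, chr8:128685654-128733200), the shared beta 1 chain. Its CPM was 394, 346, 404 and 253 in YWT, 383, 433, 325 and 297 in OWT, and 415, 324, 378 and 413 in YKO, so these 3 groups lay in 1 range. OKO ran from 159 through a median of 359 to 409. Between the ages, the log2 difference was 0.04 in wild type and -0.28 in knockout, and between the genotypes it was 0.13 in young and -0.19 in old HSCs, with SEs of 0.24 to 0.28 and edgeR adjusted p-values of 0.589 to 1.00. The 95% interval in OWT vs. YWT ran from -0.53 to 0.61.

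Itga4 (ENSMUSG00000027009.18, chr2:79255426-79333123), the chain that binds VCAM1, had lower means in old HSCs of both genotypes. Its CPM was 140.2, 113, 133 and 75.3 in YWT and 84.4, 84.2, 96.9 and 59.5 in OWT. In YKO it was 173, 117, 104 and 97.3, and in OKO it ran from 50.3 through 73.7 to 105. All 4 OWT libraries lay below 3 of the 4 YWT libraries, with YWT4 inside the OWT range, and 6 of 7 OKO libraries lay below 3 of the 4 YKO libraries. The log2 difference was -0.51 in OWT vs. YWT (SE 0.26, edgeR adjusted p = 1.00) and -0.64 in OKO vs. YKO (SE 0.22, adjusted p = 0.155), and it was 0.09 and -0.04 in YKO vs. YWT and OKO vs. OWT. YKO1, the highest library, was also the one with the most T cell RNA, and the part of this RNA in the value was not tested. On the opposite strand the gene Cerkl covers 8.04% of the exon bases of Itga4, and the counting is not stated to use strand, so reads there cannot be assigned.

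Itga6 (ENSMUSG00000027111.15, chr2:71745616-71858416), the laminin-binding chain, had higher means in old HSCs of both genotypes. Its CPM was 208, 179, 201 and 133 in YWT and 337, 404, 199 and 201 in OWT. YKO gave 141, 137, 179 and 199.8, and OKO ran from 167 through 220.3 to 334. OWT1 and OWT2 stood above every young library, while OWT3 and OWT4 lay among them. The log2 difference was 0.66 in OWT vs. YWT (SE 0.28, 95% interval 0.09 to 1.23, edgeR adjusted p = 1.00) and 0.49 in OKO vs. YKO (SE 0.25, adjusted p = 0.338). When only genes with a mean of at least 5 CPM were tested, Itga6 rose in OKO vs. YKO by 0.71 (adjusted p = 0.0133), with 8.98% of the 12363 genes called and higher. Itga5 (ENSMUSG00000000555.8, chr15:103344286-103366763), the fibronectin-receptor chain, had group means from 106 to 132 and log2 differences between -0.17 and 0.32, all with SEs of 0.27 to 0.31.

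Shares of the alpha chains within a library do not depend on how libraries are scaled against each other. Of the summed level per kilobase of Itga4, Itga5 and Itga6, Itga6 made up 54.7%, 53.5%, 54.7% and 52.1% in YWT and 60.8%, 67.0%, 59.4% and 65.8% in OWT, so the wild-type ages did not overlap. It made up 46.0%, 49.2%, 47.6% and 52.1% in YKO and 52.0% to 65.9%, with a median of 61.9%, in OKO, where only OKO2 reached down to the highest YKO library. Itga4 took the smallest share, at a mean of 15.0% ± 1.47 (SD) across the young and 8.56% ± 2.99 across the old wild-type libraries, and 16.7% ± 6.40 and 9.67% ± 2.84 for the knockout. The share of Itga5 overlapped between all groups, at 31.2%, 28.2%, 34.6% and 29.6% on average. With union exon lengths Itga6 made up 38.2% to 41.2% in YWT, 45.6% to 53.0% in OWT, 33.6% to 37.9% in YKO and 38.0% to 52.2% in OKO. These shares were chosen after the levels were seen and are given with no test, and OWT and YWT are different batches.

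**Figure D3:**
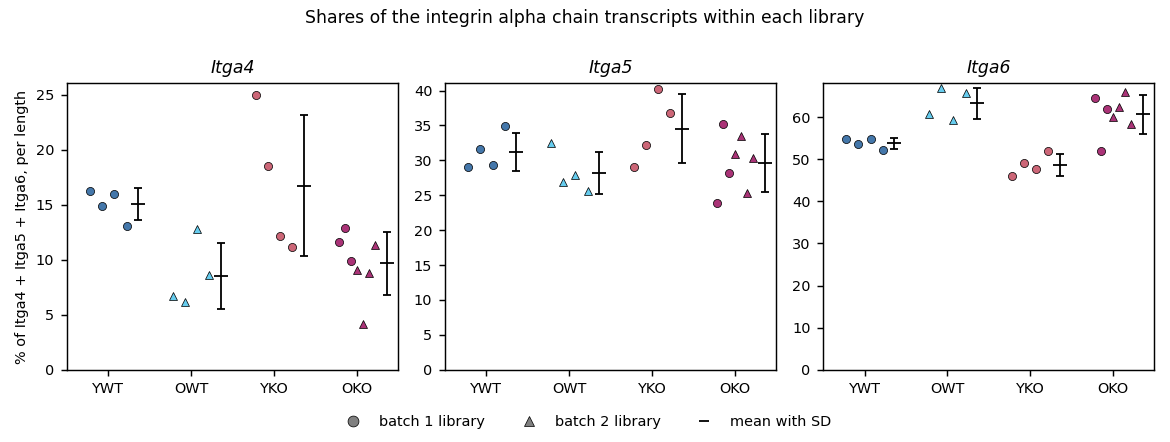
Percent of the summed per-length level of Itga4, Itga5 and Itga6 taken by each (y axis) in every library, with circles for batch 1, triangles for batch 2, and a bar for the mean with its SD. Itga6 sits at 52.1% to 54.7% in YWT and 59.4% to 67.0% in OWT, and Itga4 is lower in most old libraries.

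Selplg and Cd44, the molecules for rolling on selectin and for binding hyaluronan, had overlapping levels in the wild-type ages. Selplg (ENSMUSG00000048163.13, chr5:113818536-113832644) had a CPM of 136, 234, 168 and 158 in YWT, 188, 289.8, 197 and 172 in OWT, and 215, 190.2, 198 and 189 in YKO. Cd44 (ENSMUSG00000005087.17, chr2:102811141-102901665) had 109, 134, 106 and 80.9 in YWT, 118, 138, 123 and 100.3 in OWT, and 140.1, 114, 126 and 116 in YKO. The groups overlapped throughout, and log2 differences in OWT vs. YWT and YKO vs. YWT were 0.28 and 0.19 for Selplg (SEs 0.33) and 0.16 and 0.21 for Cd44 (SEs 0.26). With batch as a term, OWT vs. YWT turned to -0.98 for Selplg and -0.73 for Cd44 (edgeR adjusted p = 0.206 and 0.217). Only OKO lies in both batches, so this term carries the difference of OKO1 to OKO3 from OKO4 to OKO7 into the wild type. OKO ran from 78.5 through 186 to 314 for Selplg and from 58.6 through 87.7 to 139 for Cd44. For both genes the 3 lowest of all 19 libraries were OKO1, OKO2 and OKO3.

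These 3 OKO libraries share batch 1 with YKO. Compared with YKO, they were lower in Itgb1 by a log2 difference of -0.78 (edgeR adjusted p = 0.0221), in Selplg by -0.93 (adjusted p = 0.0110) and in Cd44 by -0.88 (adjusted p = 0.00578), so 3 of 10 members were called and lower, where 11.6% of all genes were. Without OKO1 only Cd44 remained called, at -0.90 (adjusted p = 0.0320). Compared across batches with OWT, the same libraries were lower in Itgb1, Selplg, Cd44 and Pecam1 by -0.72, -1.05, -0.87 and -0.80 (edgeR adjusted p-values 0.0249 to 0.0425), 4 of 10 members against 7.75% of all genes. A model with batch as a term gave -0.85, -0.99 and -0.95 for Itgb1, Selplg and Cd44 in OKO vs. YKO (adjusted p-values 0.00523 to 0.0131), with 13.4% of all genes called and lower. Only OKO lies in both batches, so that model rests on OKO1 to OKO3 again and is no separate support. The 4 OKO libraries of batch 2 against OWT of the same batch gave 0.15, 0.20, 0.01 and 0.07 for Itgb1, Selplg, Cd44 and Pecam1, with 0 of 10 members called and 0.0801% of all genes.

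The low values of OKO1 to OKO3 depended on the scaling. Their TMM factors were 1.83, 1.24 and 1.41, against 0.69 to 1.22 in the other 16 libraries. By library totals alone the differences from YKO became -0.20 for Itgb1, -0.33 for Selplg and -0.26 for Cd44 (edgeR adjusted p-values 0.173 to 0.415), while the median of all genes moved from 0.54 to 1.18. Scaling shifts all genes of a library alike. Where Itgb1, Selplg and Cd44 lie against that median is thus nearly fixed and cannot tell the scales apart. Scaled by totals, Cd44 was 107, 83.2 and 94.3 CPM in OKO1, OKO2 and OKO3 and 119, 109, 120.2 and 108 in YKO.

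**Figure D4:**
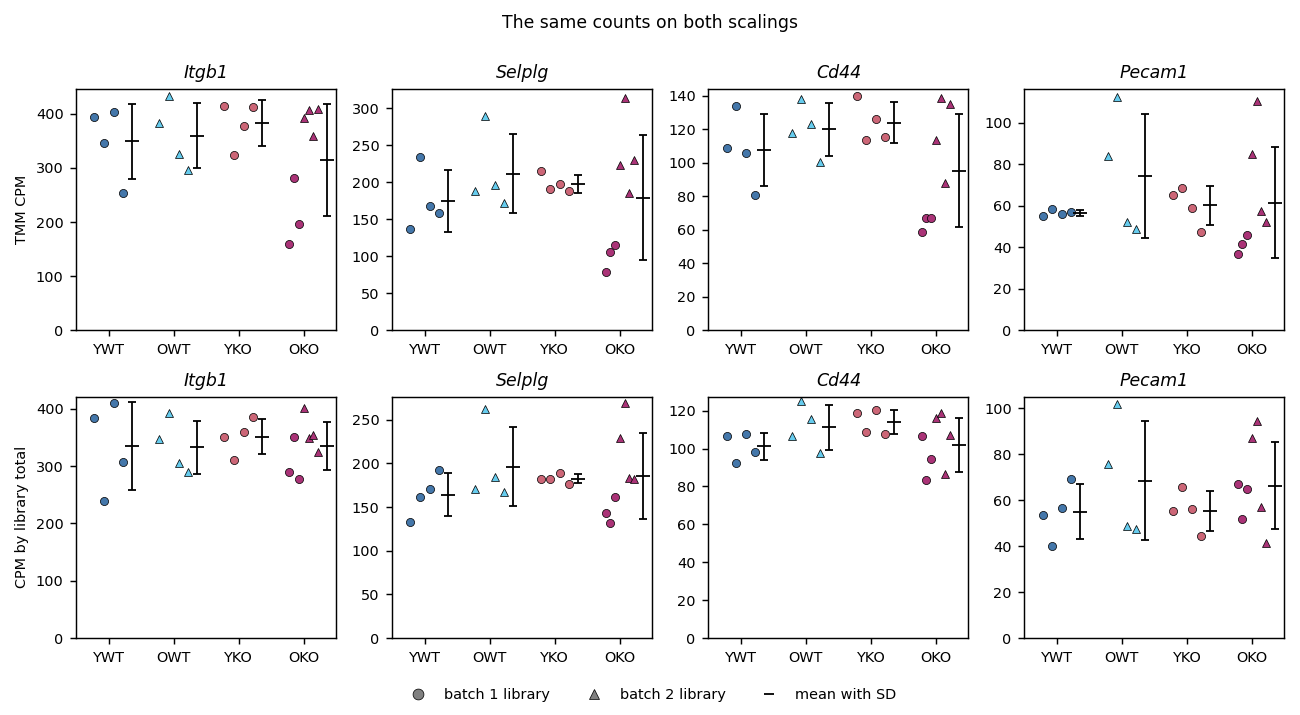
Levels of Itgb1, Selplg, Cd44 and Pecam1 (y axis) by library, scaled with TMM (upper row) and by library totals alone (lower row), with circles for batch 1, triangles for batch 2, and a bar for the mean with its SD. The 3 OKO circles lie apart from YKO on the TMM scale, at 58.6 to 66.9 against 114 to 140.1 for Cd44, and closer to it by library totals.

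Among the junction molecules Esam had the widest range. Esam (ENSMUSG00000001946.14, chr9:37528078-37538319) had a CPM of 141, 159.6, 199 and 172 in YWT, 265, 344, 147 and 197 in OWT, and 68.6, 100.3, 172 and 199.9 in YKO, and OKO ran from 108 through 191 to 437. The groups overlapped, and the log2 difference was 0.51 in OWT vs. YWT (SE 0.39, edgeR adjusted p = 1.00) and 0.68 in OKO vs. YKO (SE 0.35, adjusted p = 0.358). The 2 lowest libraries were YKO1 and YKO2, and without them the difference of YKO from YWT went from -0.31 to 0.13. Pecam1 (ENSMUSG00000020717.19, chr11:106654217-106750628) was 55.1 to 58.2 in YWT (40.3 to 69.3 by library totals alone) and ran from 48.6 to 113 in OWT, 47.6 to 68.8 in YKO and 36.9 to 110.5 in OKO. Its log2 differences were 0.39 between the ages in wild type and 0.03 in knockout, and 0.09 between the genotypes in young and -0.27 in old HSCs, with SEs of 0.27 to 0.31.

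Cdh5 (ENSMUSG00000031871.9, chr8:104101625-104144511), the endothelial cadherin, was close to absent, with a CPM of 0.303 to 1.54 in YWT, 0.369 to 0.733 in OWT, 0.745 to 1.86 in YKO and 0.112 to 1.97 in OKO. At 6 to 98 reads a library, its log2 differences of -1.02, 0.33, -0.63 and 0.73 carried SEs of 0.58 to 0.68, and none was called. Its raw counts in OKO were 98, 65, 38, 42, 71, 6 and 10, so libraries of 1 group differed widely. Levels of 12 other endothelial genes ran from near absent, with Lyve1 at 0 to 0.745 and Sox17 at 0 to 2.90, through Plvap at 0.665 to 39.5 and Cldn5 at 3.30 to 150.2, to Vwf at 285 to 1237. Vwf is also in the list of megakaryocyte and platelet genes, and Vwf, Sox17, Tie1 and Egfl7 can also be read in HSCs. Of these 12 genes, Plvap (-1.98, edgeR adjusted p = 0.0202) and Stab2 (-1.77, adjusted p = 0.0427) fell in OKO vs. YKO, and edgeR and DESeq2 called none in the other comparisons. The list went both ways, with 9 positive and 3 negative differences in OKO vs. YKO, and Cldn5 at 2.56 missed the threshold with edgeR (adjusted p = 0.0567) and passed it with DESeq2 (0.00169). Esam, Pecam1 and Cdh5 were not called.

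For each member the genes whose log2 CPM followed it most closely over the 19 libraries were taken from 11244 genes. Itga6 ran with Qsox1 (r = 0.96) and with Slamf1 (0.96), the gene of the sorting marker CD150, and Esam with Mfng (0.97) and Camk1 (0.96). Itgb1 ran with Gnpat and Thumpd1 (0.98 each), Cd44 with Eif2d and Fig4 (0.95 each), Selplg with Atp6ap1 and Gpr108 (0.94 each) and Pecam1 with Zfp46 and Mgrn1 (0.94 each). Itga5 ran with Arhgap23 and Zfp523 (0.92 each) and Itga4 with Cep192 (0.91) and Top2b (0.90). Cxcr4 had looser partners, Per1 (0.72) and Ddit4 (0.70), and Cdh5 had Clcn6 (0.60) and Mvd (0.59). These are the highest of many values, the libraries share batch and TMM scaling, and no p is given. Of 12 HSC identity genes, Slamf1 among them, 12 had a positive difference in OWT vs. YWT and 10 in OKO vs. YKO, edgeR called none in any comparison and DESeq2 called 2 higher in OKO vs. YKO, and their part in the Itga6 and Esam values was not tested.

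The wider adhesion and homing machinery was followed in 119 further genes, of which edgeR called 4 higher and 2 lower in OKO vs. YKO and none in the other 3 comparisons or in the test of the age difference. DESeq2 called 8 higher and 7 lower in OKO vs. YKO, 2 higher in OWT vs. YWT (Selp and Jam2), 1 lower in YKO vs. YWT (Rgs1) and 0 in the rest. Of all 33690 genes tested, edgeR called 434 and DESeq2 2122 in OKO vs. YKO. At an unadjusted p under 0.05 with edgeR the 119 genes numbered 14 in OWT vs. YWT, 10 in YKO vs. YWT, 14 in OKO vs. OWT and 5 in the test of the age difference, against 27 in OKO vs. YKO. Over all genes these numbers were 1476, 1548, 2741 and 1556, against 5330. None of 22 other integrin subunits, 25 integrin activation and adaptor genes or 10 glycosylation genes of selectin ligands was called by edgeR in any comparison, and DESeq2 called 2, 1 and 1 of them, all in OKO vs. YKO. The median log2 difference of these 119 genes was 0.07 in OWT vs. YWT, 0.02 in YKO vs. YWT, -0.05 in OKO vs. YKO and -0.21 in OKO vs. OWT. For the 10 members it was 0.22, 0.11, -0.09 and -0.18, and for all genes tested -0.05, -0.02, 0.23 and 0.12. These medians depend on the filter. Where a mean of at least 5 CPM was required, they were 0.21, 0.070, 0.16 and 0.011 for the members kept. For all genes they were then -0.006, -0.013, 0.032 and 0.035.

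Among 13 niche ligands and counter-receptors, Selp and Jag1 rose in OKO vs. YKO. Selp, which encodes P-selectin, the partner of PSGL-1, rose by 1.77 on the log2 scale (SE 0.41, edgeR adjusted p = 0.0332). Its CPM was 76.1, 88.5, 124 and 165 in YKO and ran from 184 through 285 to 790 in OKO, and it was 84.3 to 148 in YWT and 180 to 590 in OWT. The same direction was thus seen in wild-type HSCs, where the difference of 1.76 did not pass (adjusted p = 0.300) but did with DESeq2 (adjusted p = 0.00634). Jag1, a Notch ligand, rose by 1.65 (SE 0.42, adjusted p = 0.0492).

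Of 24 junction and other adhesion molecules, Jam2 rose by 2.02 (SE 0.41, edgeR adjusted p = 0.0161) and Alcam by 1.93 (SE 0.43, adjusted p = 0.0278) in OKO vs. YKO. Jam2, a junction molecule that pairs with other JAM proteins, had 9.63, 21.8, 25.3 and 38.1 CPM in YKO and 46.0 to 180 in OKO, with no overlap. Without YKO1 none of Jam2, Alcam, Selp and Jag1 was called (edgeR adjusted p-values 0.0771 to 0.177), while their differences stayed at 1.79, 1.86, 1.65 and 1.61. Without YKO1 and YKO2, the libraries rich in T and B cell genes, their adjusted p-values were 0.264 to 0.298 and their differences stayed between 1.44 and 1.87. In the other comparisons the lowest p-values belonged to Selp and Jam2 (1.58) in OWT vs. YWT, to Rgs1 (-0.86) and Emcn (-0.90) in YKO vs. YWT, and to Madcam1 (2.17) and Itgad (1.97) in OKO vs. OWT, with edgeR adjusted p-values of 0.269 to 0.592. Of these, DESeq2 called Jam2 (adjusted p = 0.0325) in OWT vs. YWT and Rgs1 (0.0118) in YKO vs. YWT besides Selp.

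Genes of other blood cells moved in the same comparison. In OKO vs. YKO 5 of 10 B cell genes, 3 of 9 T cell genes and 5 of 10 erythroid genes fell with edgeR, and 1 of 10 granulocyte genes rose, while 0 of 10 megakaryocyte and platelet genes and 0 of 3 progenitor genes that the sort depletes were called. There DESeq2 called 7 B cell, 8 T cell and 6 erythroid genes lower and 1 granulocyte gene higher. In YKO vs. YWT 1 of 10 erythroid genes rose and no gene of these other lists was called, and edgeR called none in OWT vs. YWT or OKO vs. OWT. DESeq2 called 2 B cell and 3 erythroid genes lower in OWT vs. YWT, and in YKO vs. YWT it called 2 T cell and 2 erythroid genes higher and 1 granulocyte gene lower. In the test of the age difference it called 1 erythroid gene, Alas2 (-2.75, DESeq2 adjusted p = 0.000553). Summed erythroid CPM was 1828 to 5051 in YKO, 724 to 2287 in YWT, 189 to 1070 in OWT and 45.7 to 2791 in OKO. Summed granulocyte CPM was 211 to 405 in YWT, 609 to 898 in OWT, 50.6 to 291 in YKO and 203 to 607 in OKO. All 10 granulocyte genes were higher in OWT vs. YWT and lower in OKO vs. OWT, though none was called. With edgeR 7 and 8 of them had an unadjusted p under 0.05, against 1476 and 2741 of all 33690 genes. Cd79a was 47.0 to 437 in YKO and 1.13 to 71.2 in OKO, Cd3e was 2.38 to 23.9 and 0.558 to 4.61, Hbb-bs was 143 to 544 and 6.59 to 50.8, Elane was 0.480 to 13.6 and 0.372 to 15.2, and Pf4 was 114 to 200.3 and 4.12 to 118. Their part in the differences of the members was not tested.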

How the data were processed

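Total RNA of sorted HSCs was made into SMART-Seq v4 libraries. The authors trimmed reads with Trim Galore 0.4.3 and cutadapt, aligned them to mm10 with STAR and deposited raw counts per gene symbol from featureCounts, 1 file per library. Whether strand was used and whether mates or fragments were counted are not given in the sources used here, and genes with a count of 2 outnumbered those with a count of 1 in all 19 libraries. Bisulfite libraries of the series were not analysed here.

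Counts were tested with edgeR 4.0.16 (R 4.3.3): filterByExpr, TMM factors, 1 mean per group over all 19 libraries, quasi-likelihood F tests, and Benjamini-Hochberg adjustment over all genes tested. Before use, the fit of OKO vs. YKO passed a test on simulated counts with planted changes. The simulation gave all genes the same spread and held no batch difference, so it does not bear on batch. CPM are scaled by TMM. Alternatives were DESeq2 1.42.0, other scalings, filters, covariates (batch, sex as listed in the supplement, which differs from the presence of Ddx3y counts in 3 of 19 libraries, replicate number) and subsets of libraries. Group and replicate come from the labels and batch from title prefixes. Positions and lengths are from GENCODE M21 (mm10); the study used M22. The lists named in the text are other integrin subunits, integrin activation and adaptor genes, Cxcr4 signalling and migration genes, niche ligands and counter-receptors, selectin ligand glycosylation genes, junction molecules, HSC identity genes, progenitor genes and markers of 6 other cell types. The members and lists were chosen with earlier results of these data known. Of each list, called genes are named up to 4 per direction (some called genes are not reported here), and where none was called in a comparison, the 2 with the lowest p over all adhesion lists. Counting error is part of the SE of every gene.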

Additional observations from a re-analysis of the deposited data

Results flagged for a closer look

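Dixon's test for an extreme library within a group, at its 95% critical value, marked none of 40 sets of levels (10 genes in 4 groups), where chance alone would mark about 2.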

How the results depend on the processing

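All values are log2 differences of members or counts of genes called. The count of members called was 0 in every comparison with each library left out in turn (a range of 0 to 0) and under all other settings run except these. In OKO vs. YKO it was 1 (Itga6, higher) when a mean of at least 5 CPM was required, 3 (Itgb1, Selplg and Cd44, lower) with batch as a term and again 3, of the same genes, with OKO1 to OKO3 alone. Only OKO lies in both batches, so every batch term here rests on OKO1 to OKO3 against OKO4 to OKO7. In OKO vs. OWT the count was 4 (Itgb1, Selplg, Cd44 and Pecam1, lower) with OKO1 to OKO3 alone. In alternatives chosen after seeing the data, OKO1 to OKO3 scaled by library totals alone gave 2 members in OKO vs. YKO (Cxcr4 and Itga6), 3 in OKO vs. OWT (Cxcr4, Itga4 and Cdh5) and 1 in the test of the age difference (Cxcr4), all higher, and OKO2 and OKO3 alone gave 1 in OKO vs. YKO (Cd44, lower).

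The members not called in the results changed sign as follows, with the cause not tested. With DESeq2 the sign changed for Itga5 (0.014) in OKO vs. YKO, and Itga4 (0.075) in OKO vs. OWT. Under upper-quartile scaling the sign changed for Itgb1 (-0.011) in OWT vs. YWT, Itga5 (0.074) in OKO vs. YKO, and Itga4 (0.20), Itga5 (0.051) and Esam (0.040) in OKO vs. OWT. Median-ratio size factors in edgeR turned Itga5 (0.014) in OKO vs. YKO, and Itga4 (0.075) in OKO vs. OWT. Without a filter on low counts the sign changed for Itga5 (0.043) in OKO vs. YKO, and Itga4 (0.025) in OKO vs. OWT. Where a mean of at least 5 CPM was required the sign changed for Itgb1 (-0.016) in OWT vs. YWT, Itga5 (0.16) in OKO vs. YKO, and Itga4 (0.24), Itga5 (0.084), Itgb1 (0.011) and Esam (0.074) in OKO vs. OWT. In fits of the compared groups alone the sign changed for Itga4 (0.069) in OKO vs. OWT. With batch as a term the sign changed for Itga5 (-0.093), Itgb1 (-0.84), Selplg (-0.98), Cd44 (-0.73), Esam (-0.27), Pecam1 (-0.48) and Cdh5 (0.28) in OWT vs. YWT, Pecam1 (-0.53) in OKO vs. YKO, and Itgb1 (0.12), Selplg (0.17), Esam (0.14) and Pecam1 (0.039) in OKO vs. OWT. Taking OKO1 to OKO3 as the only OKO libraries the sign changed for Pecam1 (-0.47) and Cdh5 (0.038) in OKO vs. YKO, and Itga4 (0.091) in OKO vs. OWT. Taking OKO4 to OKO7 instead the sign changed for Itga5 (0.14), Itgb1 (0.055) and Selplg (0.29) in OKO vs. YKO, and Itga5 (0.024), Itgb1 (0.15), Selplg (0.20), Cd44 (0.015), Esam (0.17) and Pecam1 (0.069) in OKO vs. OWT. A term for the sex listed in the supplement turned Itga5 (0.0079) in OKO vs. YKO. A replicate block turned Pecam1 (-0.20) in OKO vs. YKO, and Itga4 (0.18) in OKO vs. OWT. Scaling by library totals alone turned Itgb1 (-0.0088) in OWT vs. YWT, Itga5 (0.21) and Selplg (0.028) in OKO vs. YKO, and Itga4 (0.29), Itga5 (0.094), Itgb1 (0.0093) and Esam (0.087) in OKO vs. OWT. OKO1 to OKO3 scaled by library totals alone turned Itgb1 (-0.0088) in OWT vs. YWT, Itga4 (0.14), Itga5 (0.34) and Cdh5 (0.72) in OKO vs. YKO, and Itga4 (0.71), Itga5 (0.22), Itga6 (0.11) and Esam (0.013) in OKO vs. OWT. OKO2 and OKO3 alone turned Pecam1 (-0.46) in OKO vs. YKO, and Itga4 (0.16) in OKO vs. OWT. Leaving out YKO1 and YKO2 together turned Itga4 (-0.21), Itga6 (0.054), Esam (0.13) and Pecam1 (-0.11) in YKO vs. YWT. A term for Ddx3y counted or not turned Itga5 (0.045) in OKO vs. YKO.

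Leaving out 1 library at a time spanned 0 for Itgb1 in OWT vs. YWT (-0.084 to 0.12), Itga4 in YKO vs. YWT (-0.14 to 0.16), Itga5 in OKO vs. YKO (-0.18 to 0.15), Pecam1 in OKO vs. YKO (-0.17 to 0.13), Itga4 in OKO vs. OWT (-0.13 to 0.073), Itga5 in OKO vs. OWT (-0.31 to 0.059), Esam in OKO vs. OWT (-0.41 to 0.090), Pecam1 in OKO vs. OWT (-0.48 to 0.00048).

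Over all genes, 1 was called in OWT vs. YWT against 135 with DESeq2, 8 with no filter, 41 with the compared groups alone, 21 with batch as a term, 20 with OKO1 to OKO3 alone, 8 with OKO4 to OKO7 alone, 7 with listed sex, 9 with the replicate block, 0 with library totals, 7 with OKO1 to OKO3 with library totals, 14 with OKO2 and OKO3 alone, 12 with no YKO1 and YKO2, 5 with Ddx3y as a term, and 0 to 7 with 1 library left out. Over all genes, 9 were called in YKO vs. YWT against 136 with DESeq2, 19 with upper-quartile factors, 16 with median-ratio factors, 20 with no filter, 24 with a mean CPM of at least 5, 33 with the compared groups alone, 34 with batch as a term, 45 with OKO1 to OKO3 alone, 34 with OKO4 to OKO7 alone, 25 with the replicate block, 5 with library totals, 34 with OKO1 to OKO3 with library totals, 41 with OKO2 and OKO3 alone, 2 with no YKO1 and YKO2, 14 with Ddx3y as a term, and 2 to 20 with 1 library left out. Over all genes, 434 were called in OKO vs. YKO against 2122 with DESeq2, 1078 with upper-quartile factors, 702 with median-ratio factors, 1502 with a mean CPM of at least 5, 115 with the compared groups alone, 6420 with batch as a term, 6285 with OKO1 to OKO3 alone, 244 with OKO4 to OKO7 alone, 1774 with the replicate block, 7391 with OKO1 to OKO3 with library totals, 1500 with OKO2 and OKO3 alone, 21 with no YKO1 and YKO2, and 102 to 1822 with 1 library left out. Over all genes, 11 were called in OKO vs. OWT against 73 with DESeq2, 7 with upper-quartile factors, 1 with the compared groups alone, 25 with batch as a term, 4350 with OKO1 to OKO3 alone, 24 with OKO4 to OKO7 alone, 0 with the replicate block, 5 with library totals, 5450 with OKO1 to OKO3 with library totals, and 1 to 11 with 1 library left out. Over all genes, 0 were called in the test of the age difference against 7 with DESeq2, 163 with OKO1 to OKO3 alone, 974 with OKO1 to OKO3 with library totals, 30 with OKO2 and OKO3 alone, and 0 to 1 with 1 library left out. Of the genes called in OKO vs. YKO, 201 were higher and 233 lower with TMM, 710 and 368 with upper-quartile factors and 444 and 205 with library totals.

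Selp, Jag1, Jam2 and Alcam, called in OKO vs. YKO, lost their calls when only the groups compared were fitted (adjusted p-values 0.0659 to 0.0879), and likewise without YKO1 or without YKO2. The call of Alcam also ended without YKO3, YKO4 or OKO3, that of Selp without YKO3, OKO3, OKO4 or OKO5, and that of Jag1 without any 1 of 13 libraries (adjusted p-values 0.0504 to 0.177). With OKO4 to OKO7 alone Jag1 was no longer called (0.0629). Jag1 also passed neither with the listed sex nor with the replicate block (0.0546 and 0.0552).

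Libraries with the same replicate number did not deviate together, with correlations of their deviations from the group means between -0.49 and 0.32, so the number was not taken as a pairing, and the replicate block called 0 members in each comparison. Numbers 5, 6 and 7 occur only in OKO, so in that block OKO5 to OKO7 do not enter the differences, which rest on OKO1 to OKO4. Of 40 group levels, 38 moved by less than 1 SD when CPM was scaled by library totals. The test of the age difference could not be fitted with the compared groups alone, since it uses all 4. Age and batch remain joined in wild type.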
